A study of Mus musculus with 13 samples.

Results

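Purinergic signalling was examined through 10 genes: the nucleotide receptors P2ry12, P2ry13, P2ry6, P2ry2, P2rx4 and P2rx7, the adenosine receptors Adora3 and Adora2a, and the ectonucleotidases Entpd1 and Nt5e. They were chosen by symbol, each matched to 1 Ensembl identifier among the 52636 genes measured. The RNA came from brain-resident myeloid cells of 13 mice aged 14 to 15 months, sorted from cortex and hippocampus as CD11b+ and CD45+ and negative for Ly6g and Ccr2. All 13 mice carried the PS2APP transgenes, human mutant presenilin 2 and amyloid precursor protein, with which the brain accumulates β-amyloid plaques. The 7 mice labelled PS2APP had wild-type Trem2 (5 females and 2 males, written PS2APP;Trem2wt below), and the 6 mice labelled PS2APP;Trem2KO had the null allele Trem2tm1(KOMP)Vlcg (5 females and 1 male). No mice without the transgenes were analysed here. The null allele is constitutive, so PS2APP;Trem2KO mice lacked functional Trem2 in every cell type and at every age.

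Cells release ATP and other nucleotides when they are active, stressed or injured, and microglia read these molecules through G protein-coupled P2Y receptors and ATP-gated P2X channels. Ectonucleotidases on the cell surface shorten the signal by cutting ATP and ADP to AMP (CD39, encoded by Entpd1) and AMP to adenosine (CD73, encoded by Nt5e), and adenosine then acts on its own receptors. In microglia, ADP acting on P2Y12 draws processes towards an injury, UDP acting on P2Y6 promotes engulfment, and strong ATP stimulation of P2X7 triggers release of interleukin-1β.

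Several of these genes are neighbours. P2ry12 (ENSMUSG00000036353, chr3:59216272-59262871, minus strand) and P2ry13 (ENSMUSG00000036362, chr3:59207892-59210882, minus strand) lie side by side inside Med12l, a gene on the opposite strand that shares 9 exon bases with P2ry12 and 0 with P2ry13 and was listed at 1.98 to 3.72 nRPKM (a read count per gene length, defined below). P2rx7 (ENSMUSG00000029468, chr5:122643911-122691432, plus strand) is followed by P2rx4 (ENSMUSG00000029470, chr5:122707544-122729738, plus strand). P2ry6 (ENSMUSG00000048779, chr7:100937630-100974649) and P2ry2 (ENSMUSG00000032860, chr7:100996568-101012866) are adjacent on the minus strand of chromosome 7. The coordinates are those of GENCODE on GRCm38. The promoters of the first 2 neighbouring pairs are shown because the correlation between mice, given further on, passed its test for 1 pair and not for the other. Each sequence holds the 250 bases before the RefSeq start site (GRCm38.p6), written 5′ to 3′ on the strand of the gene, with GAGGAA, the core letters bound by the myeloid factor PU.1, in capitals where it was found on either strand. For P2rx7 the start site is the one nearest the annotated gene start. The windows are chr3:59262986-59263235 for P2ry12, chr3:59210883-59211132 for P2ry13, chr5:122643677-122643926 for P2rx7 and chr5:122707294-122707543 for P2rx4.
P2ry12: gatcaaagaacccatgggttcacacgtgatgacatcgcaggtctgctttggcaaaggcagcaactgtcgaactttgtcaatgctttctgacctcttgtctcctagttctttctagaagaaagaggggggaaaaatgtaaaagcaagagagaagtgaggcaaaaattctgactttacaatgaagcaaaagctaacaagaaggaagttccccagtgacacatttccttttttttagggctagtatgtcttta
P2ry13: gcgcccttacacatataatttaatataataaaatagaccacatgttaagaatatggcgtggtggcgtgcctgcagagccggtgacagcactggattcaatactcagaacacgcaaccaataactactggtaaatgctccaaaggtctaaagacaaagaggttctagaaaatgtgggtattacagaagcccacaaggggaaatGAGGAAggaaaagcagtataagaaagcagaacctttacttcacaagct
P2rx7: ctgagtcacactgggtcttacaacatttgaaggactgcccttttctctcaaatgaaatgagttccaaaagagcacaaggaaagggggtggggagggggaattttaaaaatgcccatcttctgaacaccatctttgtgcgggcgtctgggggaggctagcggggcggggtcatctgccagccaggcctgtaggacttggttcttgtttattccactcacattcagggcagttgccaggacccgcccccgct
P2rx4: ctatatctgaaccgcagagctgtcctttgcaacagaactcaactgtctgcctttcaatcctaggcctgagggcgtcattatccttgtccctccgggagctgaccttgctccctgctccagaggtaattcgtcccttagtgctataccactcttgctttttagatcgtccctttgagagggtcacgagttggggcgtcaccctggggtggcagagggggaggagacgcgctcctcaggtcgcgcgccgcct
Of these 4 windows, 1 held GAGGAA, that of P2ry13. The table has start sites for 8 of the 10 genes, with none for P2ry6 and Adora2a, and GAGGAA was found for 3 of the 8, namely P2ry13, Adora3 and a second start site of Entpd1. Counted by window, 3 of the 11 start sites of these genes held it, and the same letters occurred in 23.3% of the 32851 promoter windows of this length. The RUNX letters TGTGGT occurred for 1 gene, P2ry13, against 14.0% of all windows, and the ETS-IRF composite element, whose first letters can overlap those of GAGGAA, occurred for 0 genes against 2.3%. These matches describe letters only.

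Total counts on genes ranged from 26120961 to 120569609 per mouse, with a median of 35201380 in PS2APP;Trem2wt and 55371726 in PS2APP;Trem2KO mice. Trem2 was between 818 and 1244 nRPKM (RPKM, reads per gene length and library size, adjusted by a size factor) in PS2APP;Trem2wt mice and between 0.393 and 2.29 in PS2APP;Trem2KO mice, as labelled. The 9 microglia markers summed to between 12953 and 16504 nRPKM in PS2APP;Trem2wt and between 13689 and 15026 in PS2APP;Trem2KO mice, and 1 of them, Cx3cr1, was lower by the test described below. For 9 lists of other cell types no gene passed that test. Border macrophage markers summed to at most 47.9 nRPKM in any mouse. The highest sums were 36.0 for oligodendrocyte, 22.1 for astrocyte, 15.6 for endothelium and 10.7 for neuron markers. Neutrophil markers reached 149 nRPKM in 1 PS2APP;Trem2wt mouse and at most 22.0 in PS2APP;Trem2KO mice, with Ly6g and Retnlg near 0. The part of these cells in the levels below was not tested, and in bulk RNA fewer cells of a type and less RNA per cell cannot be told apart.

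The 10 genes differed widely in level, and for 7 of 9 neighbours in their order the order was the same in every mouse. Per length, P2ry12 was highest at 1950 ± 248 nRPKM (SD, n = 13), followed by P2ry13 at 775 ± 101 nRPKM. Entpd1 stood at 167 ± 19.6 nRPKM and P2ry6 at 127 ± 20.9 nRPKM. P2rx4 (54.4 ± 5.91 nRPKM), P2rx7 (45.1 ± 5.15 nRPKM) and Adora3 (33.8 ± 3.16 nRPKM) formed a middle group. P2ry2 reached only 1.18 ± 0.344 nRPKM, and Adora2a (0.136 ± 0.104 nRPKM) and Nt5e (0.0767 ± 0.0457 nRPKM) were at the edge of detection. P2ry12 alone made up 61.4% ± 1.78 (SD, n = 7) of the summed nRPKM of the 10 genes when Trem2 was wild-type and 62.2% ± 1.13 (SD, n = 6) when it was deleted.

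Neighbours in this order were compared within mice by a two-sided exact sign-flip permutation test over 9 pairs. The order was set by the mean nRPKM of these same 13 mice, so the tests describe the steps and are no separate evidence for the order. For 7 of the 9 pairs the gene named first was higher in 13 of 13 mice (exact permutation p = 0.000244, the smallest this design can give, adjusted p = 0.000314). The step from P2ry12 to P2ry13 was 2.52-fold, that from Entpd1 to P2ry6 1.33-fold and that from Adora3 to P2ry2 29.6-fold. P2rx4 was above P2rx7 in 11 of 13 mice, by 1.21-fold (exact permutation adjusted p = 0.00357). That order reversed when counts were divided by the annotated exon length of each gene, 7025 bases for P2rx4 and 5970 for P2rx7, with P2rx4 then lower by 0.96 on the log2 scale, so the rank of the 2 channels depends on the gene length used. In PS2APP;Trem2KO mice alone the difference did not pass the test (0.26 on the log2 scale, exact permutation adjusted p = 0.176). Adora2a and Nt5e did not differ beyond the spread between mice (Adora2a higher in 10 of 13, exact permutation adjusted p = 0.656). With counts per annotated exon length, Adora2a was higher by 1.29 on the log2 scale (exact permutation adjusted p = 0.0107).

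**Figure D1:**
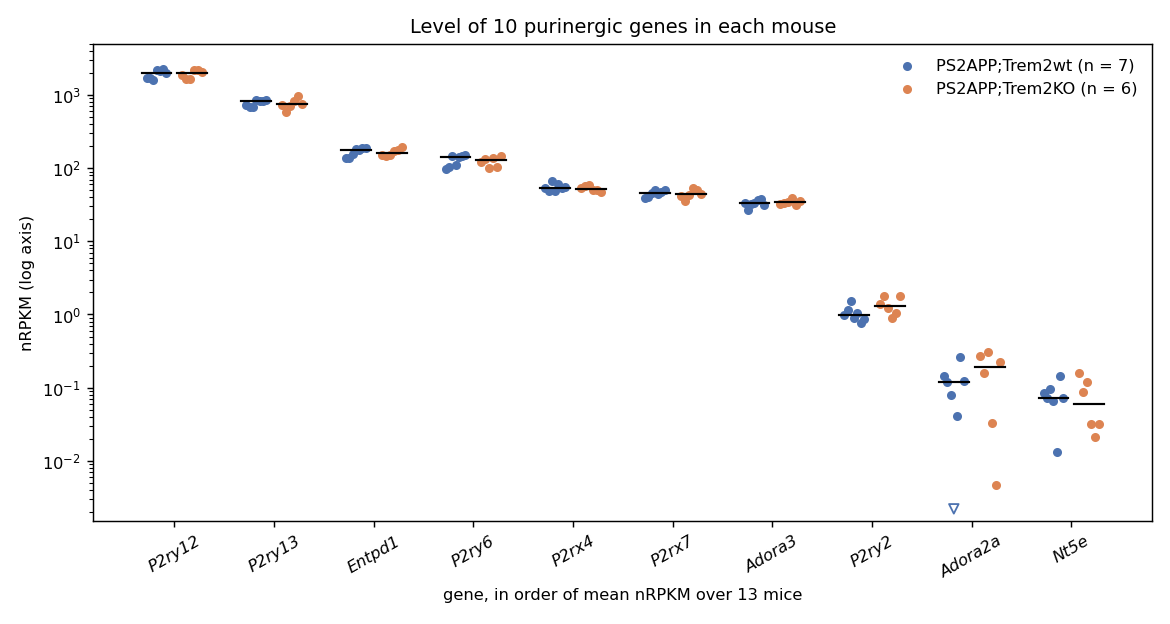
Level of each gene in each mouse as nRPKM on a log axis, with PS2APP;Trem2wt mice in blue (n = 7) and PS2APP;Trem2KO mice in orange (n = 6); bars are medians, and the open triangle marks 1 mouse in which Adora2a had 0 counts. The genes fall from about 1950 nRPKM for P2ry12 to 0.0767 for Nt5e, and within every gene the colours overlap.

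The central comparison asked whether loss of Trem2 changed the RNA of these genes in PS2APP microglia. None of the 10 was called by edgeR's quasi-likelihood test (0 of 10 at an adjusted p of 0.05 or less, Benjamini-Hochberg over all genes tested). All 10 passed the filter on low counts. Across the 17086 genes tested, 348 were called, a background of 2.04%, so that 0 of 10 lies near the background. At an unadjusted p of 0.05 or less the count was also 0 of 10, against a background of 14.8%. DESeq2 and voom+limma likewise called 0 of the 10, against backgrounds of 5.05% and 2.55%. DESeq2 gave no adjusted p for Adora2a and Nt5e, so it could not call them. For 0 of the 10 were the genotypes free of overlap, against 1.64% of all genes tested. The median log2 fold change of the 10 was -0.02, beside 0.00389 over all genes tested, and it ran from -0.07 for P2rx4 to 0.58 for Adora2a. For 8 of the 10 the 95% interval lay within a 2-fold change in either direction, and for the 7 genes above 30 nRPKM it lay between 0.801-fold and 1.17-fold.

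**Figure D2:**
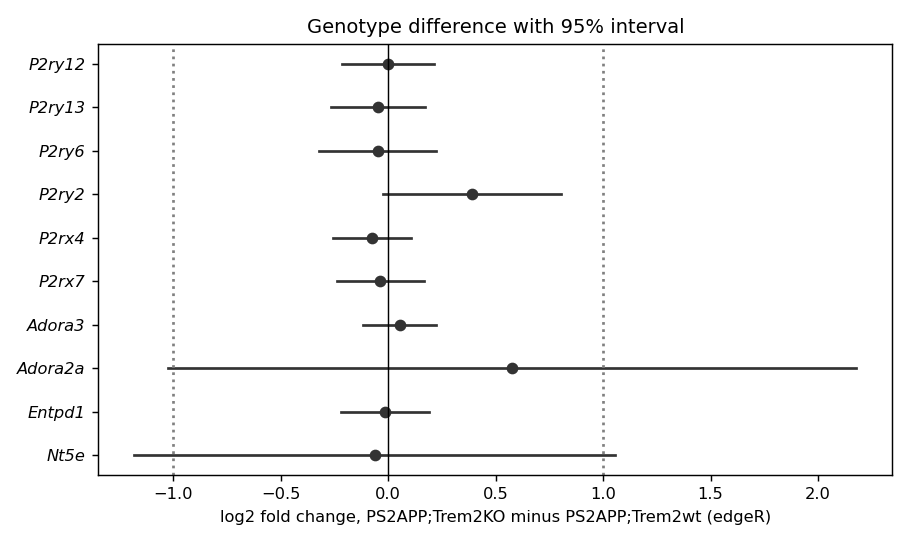
Log2 fold change of each gene, PS2APP;Trem2KO minus PS2APP;Trem2wt, from edgeR (points) with its 95% interval (lines); dotted lines mark a 2-fold change. All 10 intervals cross 0, and those of Adora2a and Nt5e extend past a 2-fold change.

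Among the P2Y receptors, P2ry12, the ADP receptor that marks homeostatic microglia, ranged from 1608 to 2280 nRPKM in PS2APP;Trem2wt mice (median 2012) and from 1652 to 2234 nRPKM in PS2APP;Trem2KO mice (median 1978). The PS2APP;Trem2KO range lay inside that of PS2APP;Trem2wt. Its log2 fold change was 0.000262 (SE 0.1005), with a 95% interval from 0.863-fold to 1.16-fold (edgeR adjusted p = 0.999). P2ry13, a second ADP receptor, ranged from 692 to 862 nRPKM (median 825) in PS2APP;Trem2wt and from 579 to 969 nRPKM (median 744) in PS2APP;Trem2KO mice. Here 1 PS2APP;Trem2KO mouse was above and 1 below all PS2APP;Trem2wt mice, and the log2 fold change was -0.05 (SE 0.103, edgeR adjusted p = 0.882). P2ry6, the UDP receptor, ranged from 96.9 to 152 nRPKM (median 144) and from 101 to 147 nRPKM (median 129) in the 2 genotypes, again fully overlapping, with a log2 fold change of -0.05 (SE 0.128, edgeR adjusted p = 0.907).

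P2ry2, a receptor for ATP and UTP, had the largest difference among the genes with more than 100 counts in every mouse. It ranged from 0.758 to 1.51 nRPKM in PS2APP;Trem2wt (median 0.973) and from 0.903 to 1.82 nRPKM in PS2APP;Trem2KO mice (median 1.31), on 104 to 784 counts. The ranges overlapped, with 2 of 6 PS2APP;Trem2KO mice above all PS2APP;Trem2wt mice. The log2 fold change was 0.39 (SE 0.195), with a 95% interval from -0.02 to 0.81, an unadjusted p of 0.0619 and an edgeR adjusted p of 0.368. Over 23 alternative settings its adjusted p lay between 0.231 and 0.538.

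The P2X channels admit sodium and calcium when ATP binds. P2rx4, the more ATP-sensitive of the pair, ranged from 48.7 to 67.7 nRPKM (median 54.1) in PS2APP;Trem2wt and from 47.0 to 58.6 nRPKM (median 52.2) in PS2APP;Trem2KO mice. The log2 fold change was -0.07 (SE 0.0856, edgeR adjusted p = 0.739). P2rx7, which opens at high ATP, ranged from 39.5 to 51.2 nRPKM (median 46.0) and from 35.4 to 53.0 nRPKM (median 43.9). On each side of the PS2APP;Trem2wt range lay 1 PS2APP;Trem2KO mouse, and the log2 fold change was -0.04 (SE 0.0946, edgeR adjusted p = 0.906). An annotated microRNA, Mir8115, lies in P2rx7 exon sequence and had 0 counts in every mouse.

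Of the adenosine receptors, Adora3, which couples to Gi, was readily measured. It ranged from 26.7 to 37.6 nRPKM (median 33.3) in PS2APP;Trem2wt and from 31.9 to 39.0 nRPKM (median 34.1) in PS2APP;Trem2KO mice. The log2 fold change was 0.05 (SE 0.0801, edgeR adjusted p = 0.809). Adora3 shares 20.89% of its exon bases with Tmigd3 on the same strand, so reads there can belong to either gene, and Tmigd3 was listed at 0.850 to 2.46 nRPKM. Adora2a, which couples to Gs and raises cAMP, had between 0 and 126 counts per mouse. It ranged from 0 to 0.259 nRPKM (median 0.120) in PS2APP;Trem2wt and from 0.00463 to 0.302 nRPKM (median 0.191) in PS2APP;Trem2KO mice. Counts were at or below 3, the limit taken for detection, in 1 mouse of each genotype. The log2 fold change of 0.58 had an SE of 0.753 and a 95% interval from -1.02 to 2.18 (edgeR adjusted p = 0.781). That interval includes a 2-fold difference in either direction, and the biological coefficient of variation of Adora2a was 0.912, the largest of the 10 genes.

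The ectonucleotidases differed from each other far more than they differed between genotypes. Entpd1, the first step, ranged from 140 to 189 nRPKM (median 175) in PS2APP;Trem2wt and from 148 to 196 nRPKM (median 164) in PS2APP;Trem2KO mice, with a log2 fold change of -0.01 (SE 0.0958, edgeR adjusted p = 0.968). Nt5e, the second step, ranged from 0.0134 to 0.145 nRPKM (median 0.0727) and from 0.0211 to 0.157 nRPKM (median 0.0589), on 3 to 112 counts. Its log2 fold change of -0.06 had a 95% interval from -1.18 to 1.05 (SE 0.526, edgeR adjusted p = 0.972). The ratio of Nt5e to Entpd1 in the same mouse had a median of 0.000510 in PS2APP;Trem2wt and 0.000326 in PS2APP;Trem2KO mice (exact permutation adjusted p = 0.844).

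Ratios of 2 genes in the same mouse do not depend on library scaling, and 5 were compared between genotypes by exact permutation (two-sided, 1716 assignments of the mice), for which the smallest p is 0.000583. The P2ry12 to P2ry13 ratio ranged from 2.31 to 2.76 (median 2.49) in PS2APP;Trem2wt and from 2.26 to 2.85 (median 2.63) in PS2APP;Trem2KO mice (exact permutation adjusted p = 0.844). The P2rx7 to P2rx4 ratio had medians of 0.824 and 0.851 (exact permutation adjusted p = 0.844). The ratio of P2ry6 to P2ry12, the UDP receptor to the ADP receptor, had medians of 0.0650 and 0.0632 (exact permutation adjusted p = 0.844). The P2ry6 to P2ry2 ratio had the largest difference, with a median of 123 in PS2APP;Trem2wt and 86.0 in PS2APP;Trem2KO mice. Its mean log2 difference was -0.42, and 1 of 6 PS2APP;Trem2KO mice exceeded the PS2APP;Trem2wt median. The unadjusted exact permutation p was 0.0944 and the adjusted p 0.472, so this ratio did not pass the test either, and 0 of the 5 did.

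Between mice of the same genotype, some of these genes varied together. For 4 pairs, the deviations of log2 nRPKM from the genotype mean were correlated over the 13 mice, with 100000 permutations within genotype. P2ry12 and P2ry13 correlated at Pearson's r = 0.84 (permutation p = 0.000290, adjusted p = 0.00116) and Spearman's rho = 0.79 (permutation p = 0.00397, adjusted p = 0.0159). Without the 2 mice farthest from the median of P2ry12, r was 0.79, and leaving out each mouse in turn gave 0.83 to 0.87. The spread behind this relation was small, since P2ry12 varied by 12.7% (coefficient of variation over 13 mice) and P2ry13 by 13.1%. Their correlation with log2 total counts was -0.06 (Spearman's rho = -0.19) and 0.23 (rho = 0.16), with permutation p-values of 0.846 and 0.451 for r and 0.565 and 0.606 for rho, and adjusted p-values of 0.929 and 0.993. Without the 2 mice farthest from the median total these 2 values of r were -0.13 and 0.17.

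P2rx4 and P2rx7, the other neighbouring pair shown above, gave r = -0.26 (permutation p = 0.376, adjusted p = 0.501) and rho = -0.26 (permutation p = 0.389, adjusted p = 0.519). P2ry2 and P2ry6 gave r = 0.17 (permutation p = 0.573, adjusted p = 0.573) and rho = 0.03 (permutation p = 0.922, adjusted p = 0.922). Entpd1 and Nt5e gave r = -0.39 (permutation p = 0.205, adjusted p = 0.409) and rho = -0.34 (permutation p = 0.269, adjusted p = 0.519). Without the 2 mice farthest from the median of the first gene, the 3 values of r were -0.39, -0.05 and -0.44. Only P2ry12 with P2ry13 passed the test, 1 of the 4 pairs.

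**Figure D3:**
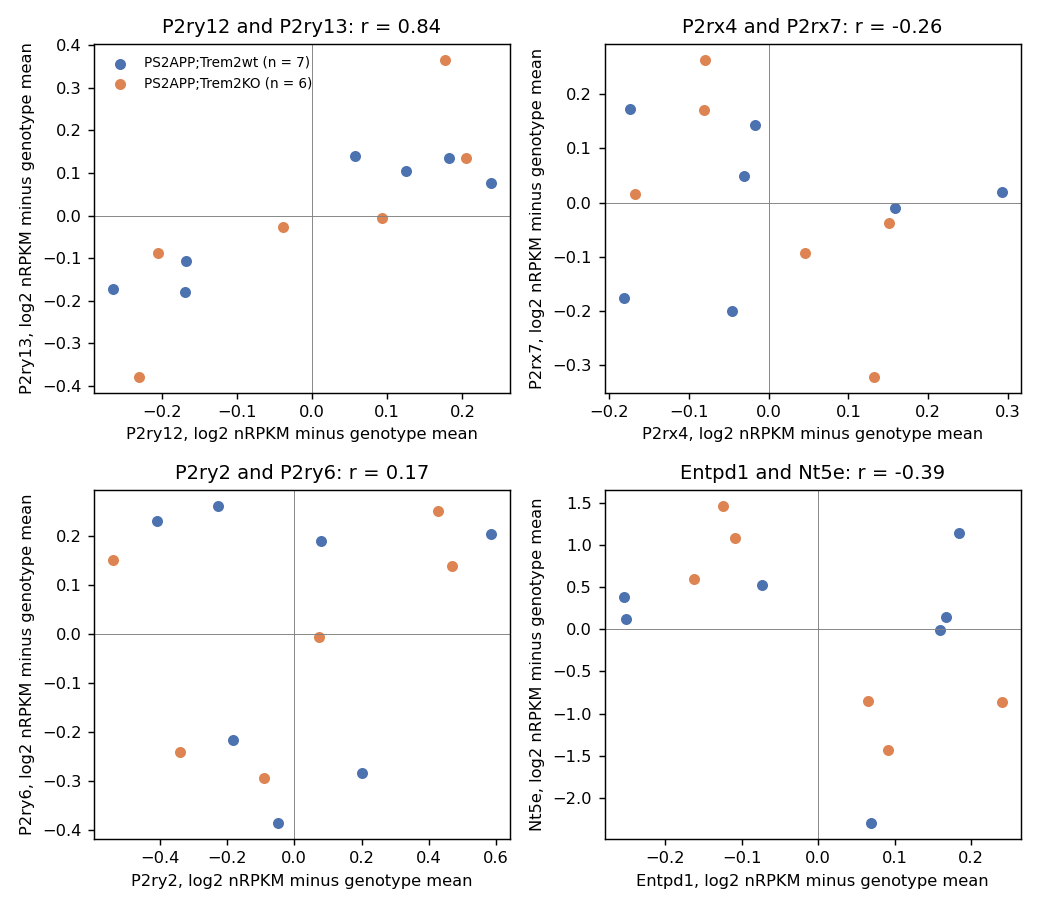
Deviation of log2 nRPKM from the genotype mean for 4 pairs of genes, 1 point per mouse, with PS2APP;Trem2wt in blue (n = 7) and PS2APP;Trem2KO in orange (n = 6). P2ry12 and P2ry13 lie along a diagonal in both colours (r = 0.84), and the other 3 pairs scatter (r from -0.39 to 0.17).

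Over all 45 pairs of the 10 genes, given here as a description, r ran from -0.73 to 0.84. P2ry12, P2ry13, P2rx7 and Entpd1, picked out after the values were seen, had r between 0.68 and 0.84 in all 6 of their pairs. P2ry2 had negative r with each of these 4, from -0.73 with P2ry13 to -0.36 with Entpd1. P2rx4, Adora2a and Nt5e were also negative with each of the 4. Their r ran from -0.51 to -0.26 for P2rx4, from -0.60 to -0.33 for Adora2a and from -0.52 to -0.38 for Nt5e. The Adora2a values include 2 mice at or below 3 counts, PS2APP;Trem2wt replicate 4 (0, replaced before logs) and PS2APP;Trem2KO replicate 5 (2). Their deviations, -4.78 and -4.23 on the log2 scale, were the largest, and r without them was not computed. Nt5e had 3 counts in PS2APP;Trem2wt replicate 5, and its r with Entpd1 was -0.42 without that mouse. P2ry13 and P2rx7, on chromosomes 3 and 5, had r = 0.84, as high as the neighbours P2ry12 and P2ry13. P2ry12 and Entpd1, on chromosomes 3 and 19, had r = 0.82. All points share the same libraries and scaling.

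**Figure D4:**
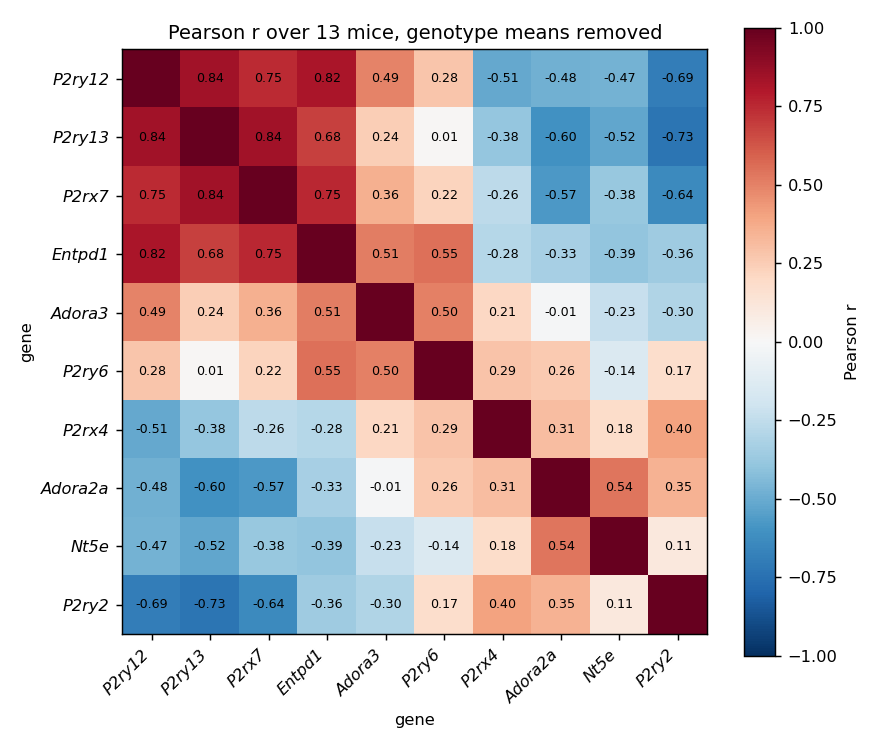
Pearson's r between the 10 genes over 13 mice, computed on deviations of log2 nRPKM from the genotype mean, with red for positive and blue for negative values. P2ry12, P2ry13, P2rx7 and Entpd1 form a red block (r from 0.68 to 0.84). P2ry2, P2rx4, Adora2a and Nt5e are blue against all 4, with Adora2a and Nt5e on counts down to 0 and 3.

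The genes most like each member were sought among 17085 tested genes by the same deviations in log2 CPM, again as a description. Closest to P2ry12 were Garnl3 (r = 0.93) and Kdelc2 (r = 0.92), and closest to P2ry13 were Pecr and Ythdf3 (r = 0.94 for both). P2rx7 was matched by Slc7a8 and Tgfa (r = 0.96 for both), and Entpd1 by Ctsf (r = 0.97), a lysosomal cathepsin, and Ap1b1 (r = 0.94). P2ry6 was matched by Ttyh3 and Calcoco1 (r = 0.91 for both), P2ry2 by Pacsin1 (r = 0.94) and Gpi1 (r = 0.92), and P2rx4 by Hyls1 (r = 0.95) and Pex16 (r = 0.93). Adora3 was matched by E2f5 and Tmem52 (r = 0.91 for both). The low genes had the weakest best matches, Neu3 (r = 0.90) and Otc (r = 0.89) for Adora2a, and Gm42879 (r = 0.88) and 4933433G19Rik (r = 0.87) for Nt5e.

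Sex was compared in a model of genotype and sex with 10 females and 3 males. By edgeR's test 0 of the 10 genes differed at an adjusted p of 0.05 or less, against a background of 0.0234% of all genes tested. Adora3 alone had an unadjusted p under 0.05 (0.0242), where the background was 6.95%. Its mean was 30.004 nRPKM in males and 35.0 nRPKM in females, a log2 difference of -0.21 (SE 0.0829, edgeR adjusted p = 0.713). DESeq2 and voom+limma also called 0 of the 10. With 1 male among the PS2APP;Trem2KO mice, an interaction of sex and genotype was not tested.

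The rest of the pathway was read from a list of 63 other purinergic genes, of which 48 passed the filter on low counts. Of the 48, 1 was higher and 1 lower in PS2APP;Trem2KO mice (edgeR adjusted p of 0.05 or less, against backgrounds of 0.503% higher and 1.53% lower), and 46 were not called. At an unadjusted edgeR p of 0.05 or less the count was 12 of the 48, 6 higher and 6 lower, against a background of 14.8%. Whether the list as a set differed from that background was not tested. The median log2 fold change of the 48 was -0.02. Calhm6, a member of the calcium homeostasis modulator channel family, some of which release ATP, ranged from 5.98 to 10.6 nRPKM (median 9.15) in PS2APP;Trem2wt and from 11.1 to 19.4 nRPKM (median 12.7) in PS2APP;Trem2KO mice. All 6 PS2APP;Trem2KO mice were above all 7 PS2APP;Trem2wt mice, and Calhm6 rose by 0.75 on the log2 scale (SE 0.151, edgeR adjusted p = 0.0162). Gnas, whose main product is the stimulatory G protein subunit used by the receptors of Adora2a and Adora2b, ranged from 5.07 to 7.77 nRPKM (median 5.90) in PS2APP;Trem2wt and from 3.59 to 4.50 nRPKM (median 3.96) in PS2APP;Trem2KO mice. The genotypes again did not overlap, and Gnas fell by 0.60 on the log2 scale (SE 0.0910, edgeR adjusted p = 0.00212). The Gnas locus also carries an antisense transcript and other overlapping genes, which counts without strand cannot separate. Both genes were called in all 23 alternative settings with no fold threshold, and neither reached a 2-fold change, the size that 0.743% of all genes reached together with the adjusted p.

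By role, 0 of the 2 tested genes listed as other P2Y receptors were called. P2ry10b was at 6.74 ± 1.003 nRPKM (SD, n = 13) and P2ry14 at 0.348 ± 0.202 nRPKM. Of the other P2X receptors, P2rx1 and P2rx6 were tested and neither was called. P2rx1, a fast-desensitising ATP channel, had values from 1.99 to 4.21 nRPKM in PS2APP;Trem2wt and from 3.86 to 5.06 nRPKM in PS2APP;Trem2KO mice, with a log2 fold change of 0.52 (SE 0.150, edgeR adjusted p = 0.101). It passed the threshold by voom+limma (adjusted p = 0.0351) and DESeq2 (adjusted p = 0.0231). These were the only 2 of 23 alternative settings that called P2rx1. In females only its edgeR adjusted p was 0.233. P2rx6 had a log2 fold change of 0.93 (SE 0.323, edgeR adjusted p = 0.173) at 0.278 ± 0.143 nRPKM (SD, n = 13).

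The differences of the other adenosine receptors had opposite signs and did not pass the test. Adora1, which couples to Gi, ranged from 0.764 to 3.20 nRPKM in PS2APP;Trem2wt and from 0.676 to 1.34 nRPKM in PS2APP;Trem2KO mice, a log2 fold change of -0.87 (SE 0.254, edgeR adjusted p = 0.1002). It passed by DESeq2 (adjusted p = 0.0150) and without PS2APP;Trem2wt replicate 4 (edgeR adjusted p = 0.0310). These were the only 2 of 23 alternative settings that called Adora1. In females only its edgeR adjusted p was 0.271. Adora2b, which couples to Gs, ranged from 0 to 0.116 nRPKM and from 0.0916 to 0.362 nRPKM, on at most 70 counts. Counts were at or below 3, the limit taken for detection, in 4 of 7 PS2APP;Trem2wt and 0 of 6 PS2APP;Trem2KO mice. The filter on counts by genotype can pass a gene that is low in 1 genotype, and with thinned counts Adora2b was not tested. Its log2 fold change was 1.92 (SE 0.559, edgeR adjusted p = 0.101), and it passed without PS2APP;Trem2wt replicate 3 (edgeR adjusted p = 0.0427). That was the only 1 of 22 alternative settings that called Adora2b. In females only its edgeR adjusted p was 0.210.

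Among the other ectonucleotidases and phosphatases 0 of 11 tested were called, the highest being Entpd6 (9.25 ± 1.69 nRPKM, SD, n = 13) and Enpp4 (5.76 ± 1.28 nRPKM). Enpp5, named after its values were seen, had a log2 fold change of 0.49 (SE 0.161, edgeR adjusted p = 0.151). Of the 6 PS2APP;Trem2KO mice, 5 were above and 1 was below all PS2APP;Trem2wt mice. Enpp5 was called without PS2APP;Trem2KO replicate 1 and in none of the other settings. Of 6 nucleotide release genes tested, Calhm6 was called, and Calhm2 had a log2 fold change of -0.23 (SE 0.0958, edgeR adjusted p = 0.265). Of 10 genes of nucleoside transport and adenosine metabolism 0 were called. The highest were Slc29a3, a lysosomal nucleoside transporter, at 75.8 ± 13.9 nRPKM (SD, n = 13) and Hprt, a purine salvage enzyme, at 72.4 ± 5.26 nRPKM. Of 15 signal transduction partners Gnas was called, and the highest, the G protein regulator Rgs10 and the inhibitory subunit Gnai2, had log2 fold changes of -0.05 (edgeR adjusted p = 0.825) and -0.11 (edgeR adjusted p = 0.392).

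**Figure D5:**
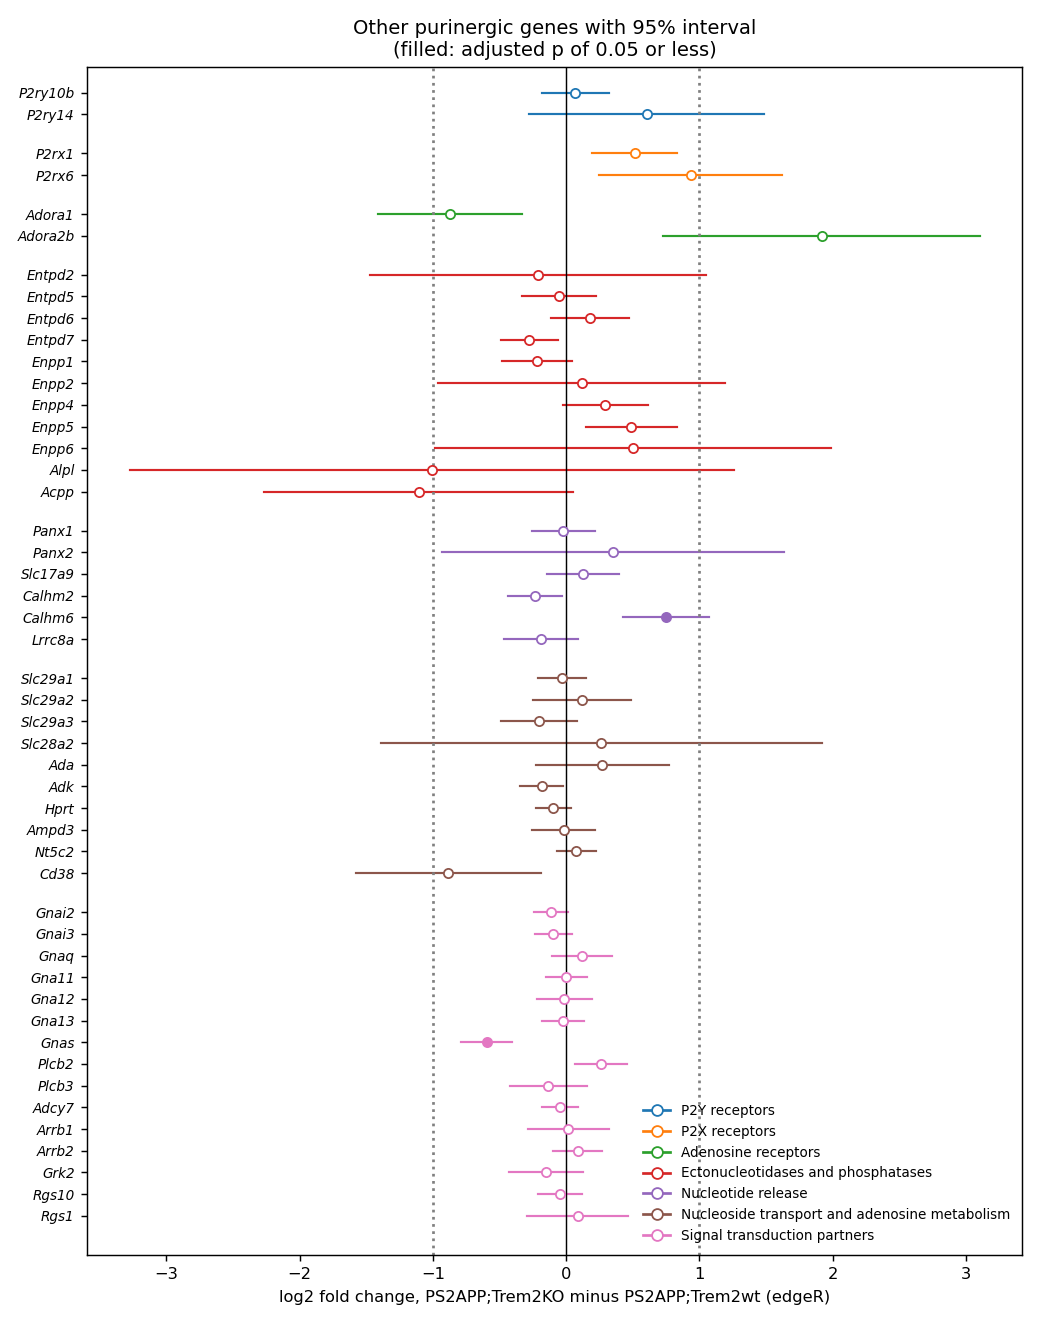
Log2 fold change of 48 other purinergic genes, PS2APP;Trem2KO minus PS2APP;Trem2wt, from edgeR (points) with 95% intervals (lines), coloured by role; filled points have an adjusted p of 0.05 or less, and dotted lines mark a 2-fold change. Calhm6 (0.75) and Gnas (-0.60) are the filled points.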

How the data were processed

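RNA of sorted brain myeloid cells was sequenced from 13 mice by the study. Per the study's methods, libraries were made with the SMART-seq v4 kit, which does not mark strand, and sequenced as single-end reads. After removal of adapter, poor-quality and rRNA sequence, alignment was to GRCm38 with GSNAP, both also named in the submitters' processing notes, and overlapping reads were counted per gene. The authors deposited raw counts of uniquely aligned reads per gene and nRPKM, an RPKM adjusted by a size factor, for 52636 genes, of which 52403 were named here from GENCODE. Whether counting used the strand is not given in the sources used here.

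Genotypes were compared with edgeR 4.0.16 in R 4.3.3 on the counts: filterByExpr by genotype, TMM scaling, quasi-likelihood F test with no covariate, and Benjamini-Hochberg adjustment over 17086 genes. A call was an adjusted p of 0.05 or less. Standard errors are the log2 fold change divided by the square root of F, and 95% intervals use the t distribution with the fit's degrees of freedom. The common biological coefficient of variation was 0.299. Levels, ratios and correlations used the deposited RPKM values without change, and a 0 was replaced by 0.5 times the gene's lowest value above 0 before logs. The limit of detection was 3 counts, 0.0249 to 0.115 CPM by mouse, which covers counting error only. The 36 pairs of mice of 1 genotype all differed beyond sampling noise (a chi-square of at least 19.6 times its expectation). Each mouse was 1 replicate.

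Alternatives were voom+limma (limma 3.58.1), the study's test, DESeq2 1.42.0, scaling by RLE, unfiltered genes, a minimum of 10 counts in at least 6 mice, a model with sex, the females alone, limma with nRPKM plus 0.1 or plus 1 in log2, thinned counts, the study's 2-fold cutoff, and leaving out each mouse. For this comparison, test counts were drawn from the real mean and spread of each of 17086 genes and the real library sizes. Changes were placed on genes picked at random. There the edgeR step recovered 40.0% of changes of 0.5, 66.0% of changes of 1 and 87.8% of changes of 2 on the log2 scale. It called 0.054% of unchanged genes. These rates were not computed for the 10 genes, whose biological coefficient of variation ran from 0.110 for Adora3 to 0.912 for Adora2a. Permutation tests used Python 3.11.15 and scipy 1.17.1. Promoters are RefSeq's, GRCm38.p6.

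The 10 genes and the lists of other purinergic genes and markers were chosen with earlier results of these data known. Named beside the 10 genes were Trem2, every called gene of the other list, the 2 tested genes of highest mean nRPKM in each role, the 2 genes most like each member, and genes whose exons overlap a member's.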

Additional observations from a re-analysis of the deposited data

Results flagged for a closer look

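Each gene named from the 2 lists, with Trem2, was examined for a mouse standing apart within its genotype, 52 groups in all by Dixon's test at the 95% level. Chance alone marks about 1 in 20 groups, and 2 of 52 were marked. None of the 10 purinergic genes was among them. Trem2 was 2.29 nRPKM in PS2APP;Trem2KO replicate 4, where the next highest mouse of that genotype had 0.979, against at least 818 in PS2APP;Trem2wt mice. Gnai2 was 275 nRPKM in PS2APP;Trem2wt replicate 3, where the next highest had 247. That mouse also had the highest P2rx4 and P2ry2 of its genotype, 67.7 and 1.51 nRPKM, and the lowest P2ry12 of all 13 mice, 1608 nRPKM.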

How the results depend on the processing

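The count of 0 of the 10 genes held in every alternative with an adjusted p, as did 0 of 5 ratios, 1 of 4 correlated pairs, 0 of 10 genes by sex and 8 of 10 intervals within a 2-fold change, except that limma on log2(nRPKM + 0.1) and log2(nRPKM + 1) put 9 and 10 intervals there. The number of other purinergic genes called was 2, became 0 with the 2-fold cutoff (12 of 48 had an unadjusted p of 0.05 or less, against 14.8% of all genes tested) and 4 with DESeq2, and was 2 to 3 when each mouse was left out. DESeq2 gave no adjusted p for Adora2a, Nt5e and Adora2b, so it could not call them. Over all genes DESeq2 called 862 (332 higher) against 348 (86 higher), and the 2-fold cutoff left 127. By sex, DESeq2 called 36 genes and the PS2APP;Trem2wt mice alone 7, against 4.

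Several signs turned, and the cause was not tested. Except for P2rx4 over P2rx7, none of the values that turned was called. The log2 fold change turned for Adora2a with voom+limma (-0.12), for P2ry12 and Nt5e in females only (-0.059 and 0.097) and for P2ry12 with thinned counts (-0.00151). Leaving out each mouse gave -0.043 to 0.045 for P2ry12, -0.13 to 0.022 for P2ry13, -0.11 to 0.00942 for P2ry6, -0.094 to 0.024 for P2rx7, -0.061 to 0.020 for Entpd1 and -0.44 to 0.15 for Nt5e. In females only the ratio differences of Nt5e to Entpd1 and P2ry6 to P2ry12 became 0.18 and 0.060. Leaving out each mouse gave -0.040 to 0.12 for P2rx7 to P2rx4, -0.59 to 0.11 for Nt5e to Entpd1 and -0.11 to 0.043 for P2ry6 to P2ry12. Among levels, P2rx4 over P2rx7 became -0.96 with counts per exon length, Adora2a over Nt5e became -0.049 in PS2APP;Trem2wt mice alone, and P2rx4 over P2rx7 was not called in PS2APP;Trem2KO mice alone (0.26). Adora2a over Nt5e passed with counts per exon length (1.29) and with log2(nRPKM + 0.1) (0.32). In PS2APP;Trem2wt mice alone the sex difference turned for P2ry12 (-0.084), P2ry13 (-0.020), P2rx7 (-0.015), Adora2a (0.23) and Entpd1 (-0.049).

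No paired analysis was possible because the labels give no numbers shared between the genotypes, although the study's methods state that mice of the 2 genotypes were generally processed in pairs. Adora2a and Nt5e had the lowest counts, down to 0 and 3 in single mice, and the largest spread between mice of the 10 genes (biological coefficients of variation of 0.912 and 0.634), and the gene length limits the order of P2rx4 and P2rx7.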

Other observations

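Of the 63 other purinergic genes, 15 did not pass the filter on low counts and were not tested. They include P2ry1, P2ry4 and P2ry10, listed as P2Y receptors, and the P2X receptors P2rx2, P2rx3 and P2rx5, none of which is described further. Within genotypes, the correlation with log2 total counts passed no test for any of the 10 genes over the 13 mice. It was highest for P2rx4 (r = 0.38, permutation p = 0.236, adjusted p = 0.929, and Spearman's rho = 0.55, permutation p = 0.0720, adjusted p = 0.720), and r was 0.51 without the 2 mice farthest from the median total. With the log2 TMM scaling factor r ran from -0.56 for P2rx4 to 0.37 for Adora2a, and this was not tested.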
